A study of Mus musculus with 14 samples.

Results

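The later-numbered miRNAs are the small RNAs that took catalogue numbers of 700 and above as sequencing filled in the list of mouse and rat miRNAs. They were chosen by the number in their name, out of the wells that the authors' deposited table names, leaving out miR-720, miR-758, miR-770, miR-802, miR-882, miR-1193, miR-1274a, miR-1839 and miR-1937a, b and c. This gave 37 of the 389 named miRNAs, and 10 further names of 700 and above were left out in this way. That table had been filtered on detection, so that being detected in the mice is part of how the members were selected, and their detection is given as a description with no test. All 37 passed the filter on missing values used here and are among the 388 miRNAs tested. They sit on 2 plates, 5 of them (miR-708, miR-744, miR-874, miR-877 and miR-1949) on panel I and 32 on panel II, and 2 of them, miR-764 and miR-935, carry rat names (rno-).

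Plasma miRNAs of mice with osteosarcoma (OS), the malignant bone tumour, were set against those of healthy mice by quantitative PCR on Exiqon mouse panels, with 1 plasma sample per mouse. The 8 OS mice carried Cre recombinase under a 2.3 kb Col-α1(I) promoter, which is active in osteoblasts, together with Trp53 flanked by loxP sites on 1 or on both alleles. Loss of Trp53 in bone-forming cells gave tumours at a median age of 54 weeks with 1 floxed allele and of 38 weeks with both, and the labels do not say which mouse carried which, nor its age or the stage of its tumour. The 6 control mice were wild-type littermates, given in the methods as p53+/+;Cre+/−, and blood of both groups was taken into EDTA. The values are quantification cycles (Cq), which fall by 1 for each doubling of the template. They are given below as a normalized level on the log2 scale, that is, how many cycles earlier a miRNA appeared than the mean of all retained miRNAs of the same mouse, so that 0 is an average miRNA and a higher value is more RNA. Assay efficiencies were not given in the sources used here, so an order of levels between miRNAs is an order of assay signals.

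A miRNA is cut from a hairpin transcript and loaded into an Argonaute protein, where bases 2 to 8, the seed, do most of the pairing with target messages. Many early-numbered miRNAs are old, abundant and shared across vertebrates, whereas later numbers were mostly given to scarce RNAs from deep sequencing, often seen in rodents alone and with no established target, and some of these names were later withdrawn. RNA in plasma comes from blood cells, vessels and tissues in vesicles and protein complexes, and in such a mixed sample fewer source cells and less RNA per cell cannot be told apart.

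Mature sequences were looked up in RefSeq for GRCm38.p6, with the arm of older names assigned by hand, and 25 of the 37 members were found, among them 5 of the 10 that passed the test below. Those 5 are printed, with the seed in capitals, as the members past the threshold whose sequence was found.
miR-706: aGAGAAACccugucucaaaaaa
miR-1195: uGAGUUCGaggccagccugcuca
miR-1895: cCCCCGAGgaggacgaggagga
miR-1952: uCUCCACCcuccuucug
miR-2137: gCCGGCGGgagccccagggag
The 25 sequences have 25 different seeds, so none of them can be grouped with another by seed. miR-706 lies at chr6:120034290-120034311 on the minus strand, inside Wnk1, a kinase that governs ion transport. miR-1895 lies at chr3:134240515-134240536 on the minus strand, inside Cxxc4, an inhibitor of Wnt signalling. miR-2137 lies at chrX:72992113-72992133 on the plus strand, inside Zfp185, a LIM-domain protein of the actin cytoskeleton. miR-1195, at chr17:70860558-70860580 on the minus strand, and miR-1952, at chr2:138819943-138819959 on the plus strand, lie inside no other annotated gene. Of the 25, 21 lie within the bounds of a protein-coding gene. GC content ran from 35.3% in miR-1961 to 85.7% in miR-2137, with a median of 57.1% against 52.2% over the 1679 mature mouse miRNAs of the table. The miR-709, miR-1196, miR-1939, miR-1959 and miR-2145 that also passed the test are named only.

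Matches in promoters set 2 of the 25 sequences found apart. The 12 members with no sequence found, miR-709 among them, were not searched. Every stretch of 15 bases of each of the 25 miRNAs was searched on both strands of 32851 promoter windows of 300 bases. The commonest stretch of miR-706 and that of miR-1195, both counted from base 1, are printed as DNA because they occur in the promoters of several genes.
miR-706, bases 1 to 15: agagaaaccctgtct
miR-1195, bases 1 to 15: tgagttcgaggccag
The first stands in 46 promoters (0.14%) and the second in 11 (0.0335%), against at most 5 promoters (0.0152%) for any stretch of the other 23 members. Both resemble the B1 element, a short interspersed repeat present in very many copies in rodent genomes. No annotation of repeats was searched. A match is a description of letters and says nothing about the origin of the RNA measured.

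Later-numbered miRNAs were mostly scarce in plasma. Their median level was −1.77, against −0.75 over all 388 miRNAs, and 26 of the 37 lay below the average of their mouse. Their mean Cq ran from 24.4 to 36.0 with a median of 33.7, 1 cycle later than the 32.7 over all miRNAs. miR-2145 stood apart with a mean level of 7.58, rank 9 of 388, and was the only member among the 20 most abundant miRNAs. It was followed by miR-709 (4.91, rank 42), which has been described as a regulator of miRNA processing in the nucleus, and by miR-2137 (3.37, rank 68). miR-1949 (2.90, rank 76), miR-1939 (2.90, rank 77), miR-1900 (2.85, rank 79), miR-706 (2.05, rank 95), miR-1959 (1.03, rank 131), miR-1198-5p (0.67, rank 143) and miR-1195 (0.56, rank 148) completed the 10 highest. At the other end lay miR-1898 (−4.19, rank 380) and miR-1934 (−4.16). The spread between mice within a group was like that of other miRNAs, with a median SD of 0.873 over the 25 members measured in every mouse against 0.819 over all 276 such miRNAs. The plot of levels by mouse shows these values.

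**Figure D1:**
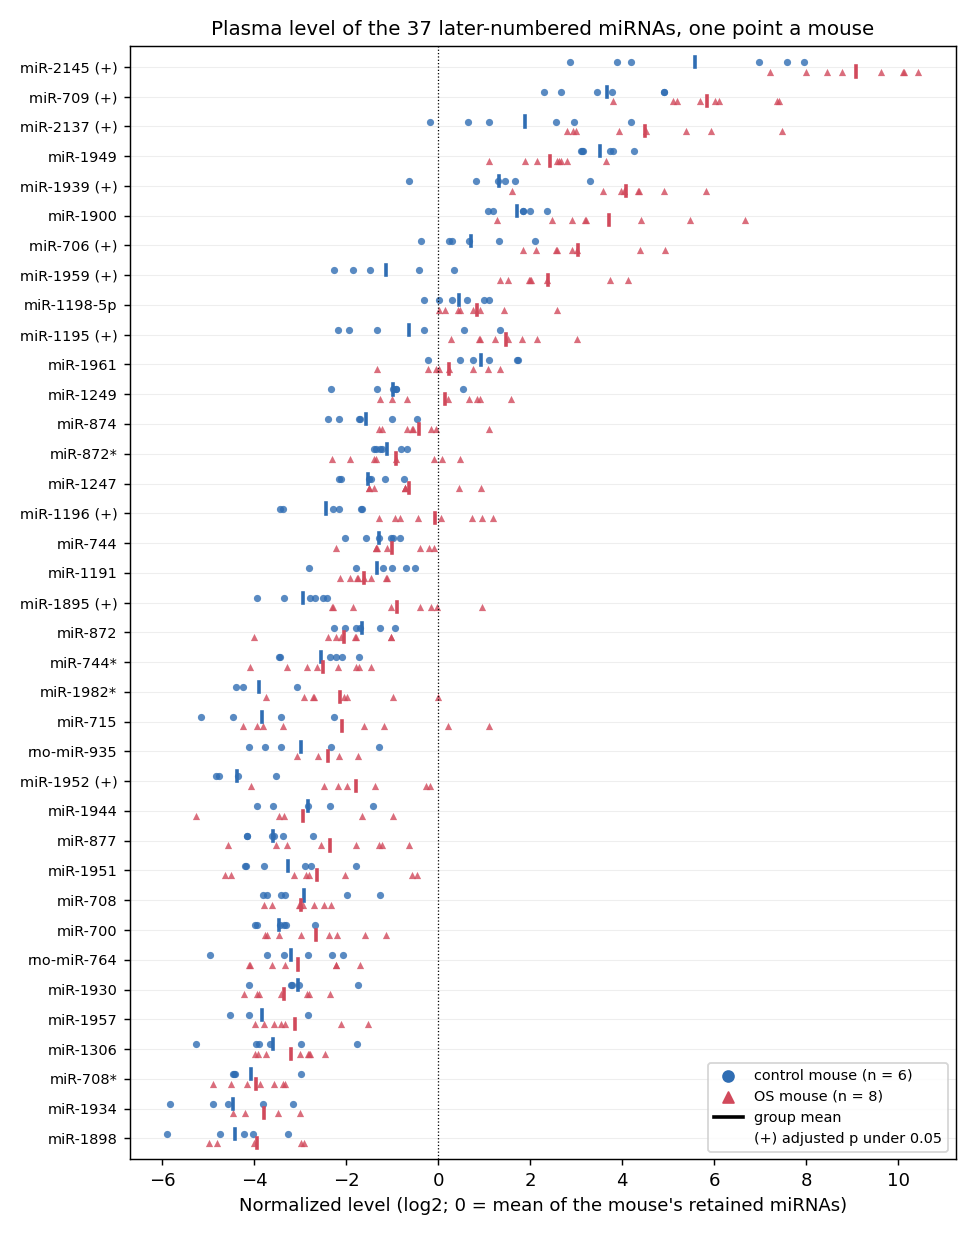
Normalized level (x axis, log2) of each of the 37 later-numbered miRNAs (rows, by mean level), with a circle for each control mouse (n = 6), a triangle for each OS mouse (n = 8), a bar for each group mean and a plus sign for an adjusted p under 0.05. miR-2145 lies far to the right, and 26 of the 37 miRNAs have a mean below 0.

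Detection was close to that of the whole table. At the limit of Cq 37, 25 of the 37 members (67.6%) were measured in all 14 mice, against 276 of 388 miRNAs (71.1%). The number of members detected in a mouse ran from 31 to 37 in controls, with a mean of 34.0 ± 2.68 (SD, n = 6), and from 33 to 37 among OS mice, with a mean of 34.6 ± 1.60 (SD, n = 8), so that the OS range lies within that of controls. The members seen least often were miR-1934 and miR-935, each in 5 controls and 4 OS mice, miR-1898 and miR-1944, each in 5 controls and 5 OS mice, and miR-1957, in 3 controls and 7 OS mice. miR-1982* was detected in 3 controls and all 8 OS mice, and miR-715 in 4 controls and all 8 OS mice. A Cq above the limit is not a level of 0, and near the limit a missing value and a low value cannot be told apart.

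Levels in OS were next compared with those of controls for each miRNA. In limma, adjusted over all 388, 10 of the 37 later-numbered miRNAs (27.0%) were higher in OS, where the background over all miRNAs is 6.19%. None was lower, where the background is 6.44%, and 27 did not pass. Passed or not, 30 of the 37 differences (81.1%) were above 0, against 193 of all 388 (49.7%), and this count was 25 with each panel scaled to its own mean and 22 without scaling. The median difference was 0.72 on the log2 scale against −0.00 over all miRNAs, and 0.36 with each panel scaled to its own mean. At an unadjusted p under 0.05 by limma, 15 members were higher and 1 was lower, where 30.7% of all miRNAs passed in either direction. The unpaired test that the methods name, with the same adjustment, called 6 members higher and 0 lower. Over all miRNAs it called 10 higher and 14 lower. Of the 14 other miRNAs higher in OS, 4 are among the names of 700 and above that the rule left out (miR-1274a and miR-1937a, b and c). The 10 rises had a median of 2.47 on the log2 scale and ran from 4.16-fold to 11.5-fold. All 10 lie on panel II, where the median difference over its 137 miRNAs was 0.28, against −0.22 over the 248 of panel I. Among the 105 other miRNAs of panel II 8 were higher, and among the 243 others of panel I 6 were. With each panel scaled to its own mean 10 members were again higher, with miR-874 of panel I gained (adjusted p = 0.0454 by limma) and miR-2137 lost (adjusted p = 0.0609 by limma).

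**Figure D2:**
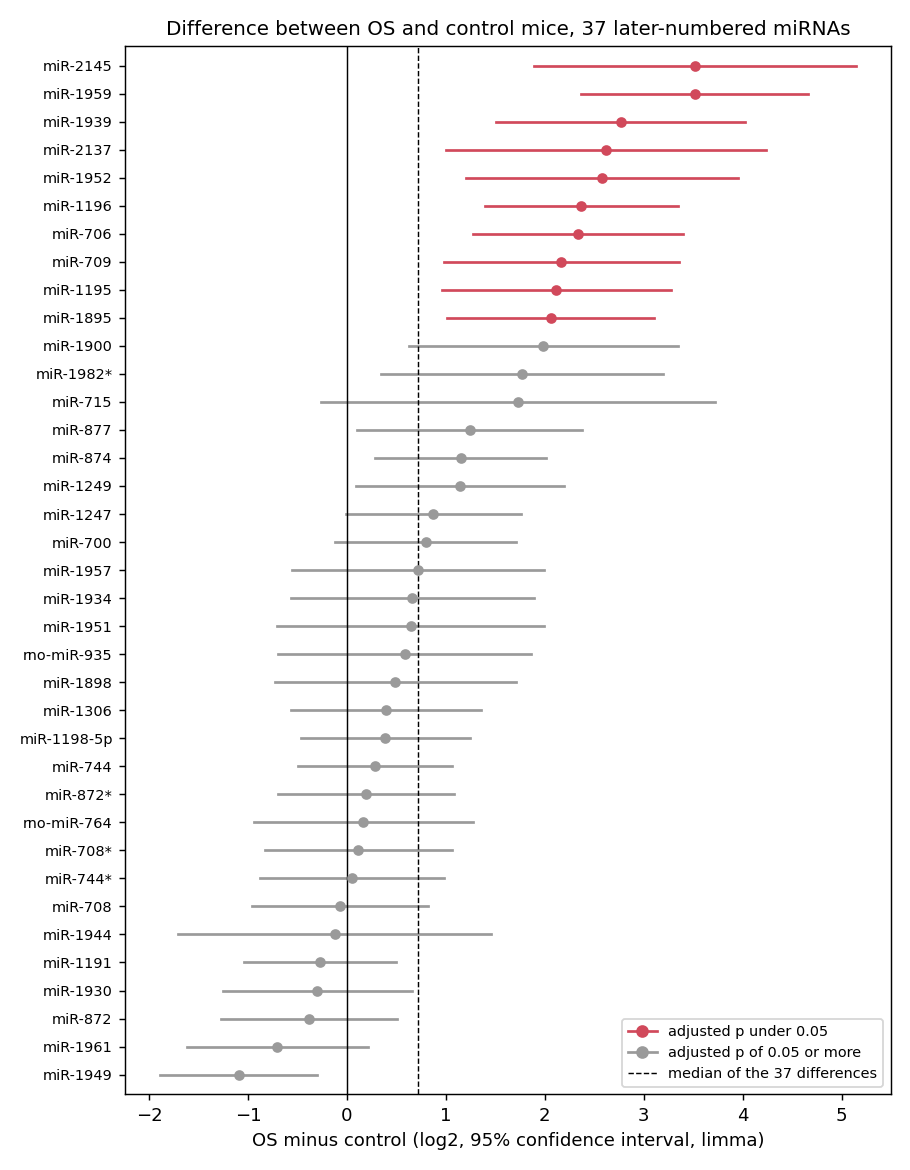
Difference between OS and control mice (x axis, log2, limma, with 95% confidence interval) for each of the 37 later-numbered miRNAs (rows, by size), red where the adjusted p was under 0.05. The 10 red intervals all lie above 0, and the dashed line at 0.72 marks the median difference.

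**Figure D3:**
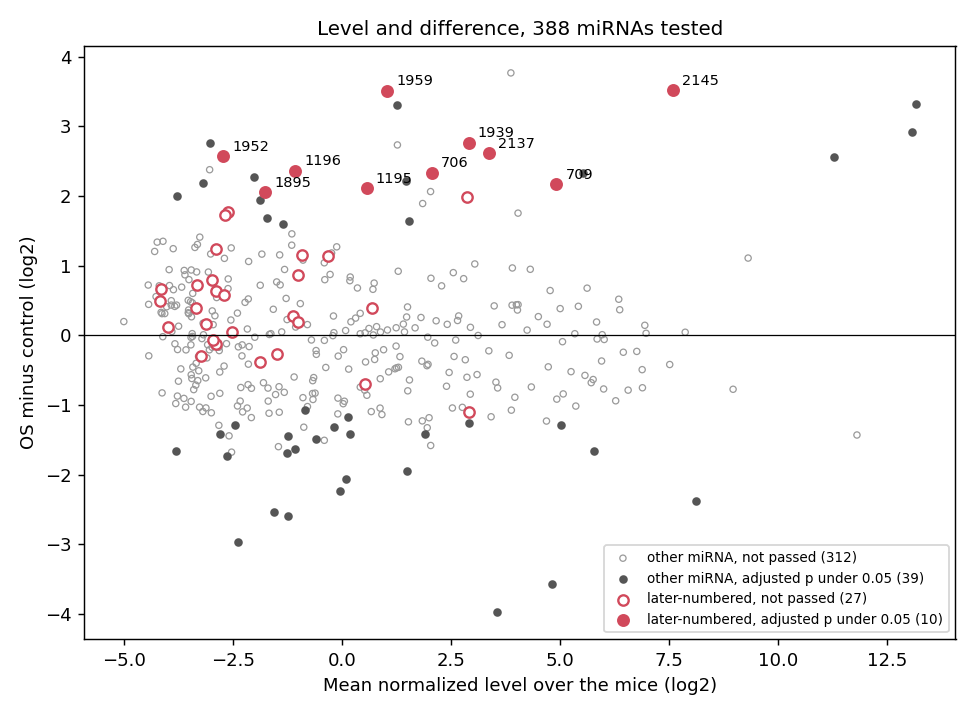
Mean normalized level (x axis, log2) and difference between OS and control (y axis, log2) of all 388 miRNAs, with the later-numbered ones in red and filled where the adjusted p was under 0.05. The filled red points lie between 2.06 and 3.52 at both low and high levels.

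The libraries bear on these counts in several ways. Controls have the sample numbers 1 to 4, 13 and 14 and OS mice 10 to 12 and 15 to 19, so that 4 controls have numbers far from any OS mouse, and nothing in the labels says whether numbers mark batches. The mice numbered 10 to 19 leave 2 controls against 8 OS mice and were chosen after the data were seen. In them 0 members were higher and 0 lower by limma at an adjusted p under 0.05. At an unadjusted p under 0.05, 6 were higher and 1 lower, and the share over all miRNAs in these mice is not given. There 29 of 37 differences were above 0, and those of the 10 miRNAs ran from 1.34 to 2.42, with 0.0905 as their smallest adjusted p. As a haemolysis marker, the miR-451 Cq was subtracted from the miR-23a Cq of the same mouse. This marker averaged 5.77 ± 1.43 (SD) over the 6 controls and 4.19 ± 1.94 (SD) over the 8 OS mice. Whether haemolysis accounts for the differences of the members was not tested. Of 7 red cell miRNAs 0 were higher and 2 lower, and their summed level on the log2 scale ran from 12.0 to 14.0 in controls and from 9.67 to 13.0 in OS mice. Of 8 white cell and platelet miRNAs 0 were higher and 1 lower, with summed levels of 8.55 to 9.69 and 7.92 to 8.52. The background over all miRNAs is 6.19% higher and 6.44% lower. At an unadjusted p under 0.05 by limma, 4 of the red cell and 3 of the white cell and platelet miRNAs were lower and none was higher. Over all miRNAs 30.7% passed at that unadjusted p in either direction. The white cell and platelet list holds miR-223 under both a mouse and a rat name. With the haemolysis marker as a covariate 6 members were higher, among 11 of all miRNAs. Without any scaling, where the median of all miRNAs moved to −0.45, 2 members were higher, among 4 of all miRNAs. The main fit called 24 of all miRNAs higher.

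No OS mouse overlapped the controls for 3 of the 10. miR-1196 had levels of −3.45, −2.23 and −1.65 (lowest, median and highest) in controls and of −1.29, −0.19 and 1.20 in OS mice. Every OS mouse lay above every control, and the difference was 2.37 (SE 0.46, adjusted p = 0.00563 by limma, exact permutation p = 0.000666). miR-1895 ran from −3.95 over −2.73 to −2.42 in controls and from −2.31 over −0.71 to 0.95 in OS. Its groups do not overlap either, although OS replicates 10 and 17, at −2.31 and −2.29, lie close to the highest control. The difference was 2.06 (SE 0.50, adjusted p = 0.0141 by limma, exact permutation p = 0.00266), and at a limit of Cq 35 it was 1.62 and did not pass (adjusted p = 0.065). Over the 276 miRNAs measured in every mouse, 0.725% separated the groups upward in this way, and that share is these 2 miRNAs alone. miR-1959, which control replicate 1 lacked, ran from −2.27 over −1.48 to 0.35 in 5 controls and from 1.35 over 2.00 to 4.13 in OS. It differed by 3.51 (SE 0.54, adjusted p = 0.00114 by limma, exact permutation p = 0.000777). That permutation p is the smallest possible with this number of mice. For the rest of the 10 the exact permutation p ran from 0.000999 for miR-706 to 0.0152 for miR-1952.

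miR-706 and miR-1195, which hold the stretches that resemble B1, were also higher. So was miR-709, whose sequence was not searched. A link between the stretches and the levels was not tested. miR-706 ran from −0.37 over 0.49 to 2.11 in controls and from 1.85 over 2.75 to 4.94 in OS. Only OS replicate 11 fell below the highest control, replicate 13, and the difference was 2.34 (SE 0.51, adjusted p = 0.00913 by limma). miR-1195 ran from −2.19 over −0.82 to 1.33 in controls and from 0.28 over 1.37 to 3.01 in OS. Its groups overlap, since only 4 of 8 OS mice exceeded control replicate 2, and it rose by 2.12 (SE 0.55, adjusted p = 0.0214 by limma). Without control replicate 3 the difference was 1.81 with an adjusted p of 0.0605 by limma. miR-709 ran from 2.30 over 3.62 to 4.91 in controls and from 3.80 over 5.86 to 7.42 in OS, with OS replicate 17 alone inside the control range. It rose by 2.17 (SE 0.57, adjusted p = 0.0214 by limma), and its adjusted p was 0.0605 without control replicate 3 and 0.0508 without control replicate 14.

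The most abundant member, miR-2145, showed with miR-1959 the largest difference among the members. It ran from 2.86 over 5.58 to 7.95 in controls and from 7.20 over 9.21 to 10.4 in OS. The controls were spread widely, with replicates 1, 3 and 4 at 2.86 to 4.19 and replicates 2, 13 and 14 at 6.97 to 7.95, and OS replicate 19 at 7.20 was the only OS mouse below any control. The difference was 3.52 (SE 0.77, adjusted p = 0.00945 by limma), and against control replicates 13 and 14 alone it was 1.64 (adjusted p = 0.249 by limma).

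The other rises were those of miR-1939, miR-2137 and miR-1952. miR-1939 ran from −0.64 over 1.38 to 3.29 in controls and from 1.60 over 4.19 to 5.83 in OS. OS replicate 17 lay among the controls and the other 7 above all of them, with a difference of 2.76 (SE 0.60, adjusted p = 0.00913 by limma). miR-2137 ran from −0.17 over 1.83 to 4.18 in controls and from 2.79 over 4.22 to 7.48 in OS. Its groups overlap in 4 of 8 OS mice, and the difference of 2.62 (SE 0.77, adjusted p = 0.0331 by limma) lost its call in 8 of the 14 fits that left out 1 mouse, namely control replicates 1, 3, 4 and 14 and OS replicates 10, 11, 12 and 16, where it was 2.19 to 2.75 with adjusted p of 0.0539 to 0.0764. miR-1952 was measured in 4 controls, from −4.84 over −4.56 to −3.52, and in 7 OS mice, from −4.08 over −1.99 to −0.19. Of these OS mice 6 lay above every control, and it rose by 2.58 (SE 0.64, adjusted p = 0.0214 by limma), with an adjusted p of 0.064 without control replicate 14. It lies near the detection limit, and it passed neither at Cq 35 (1.94, adjusted p = 0.198 by limma) nor at Cq 39 (2.26, adjusted p = 0.0566 by limma).

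**Figure D4:**
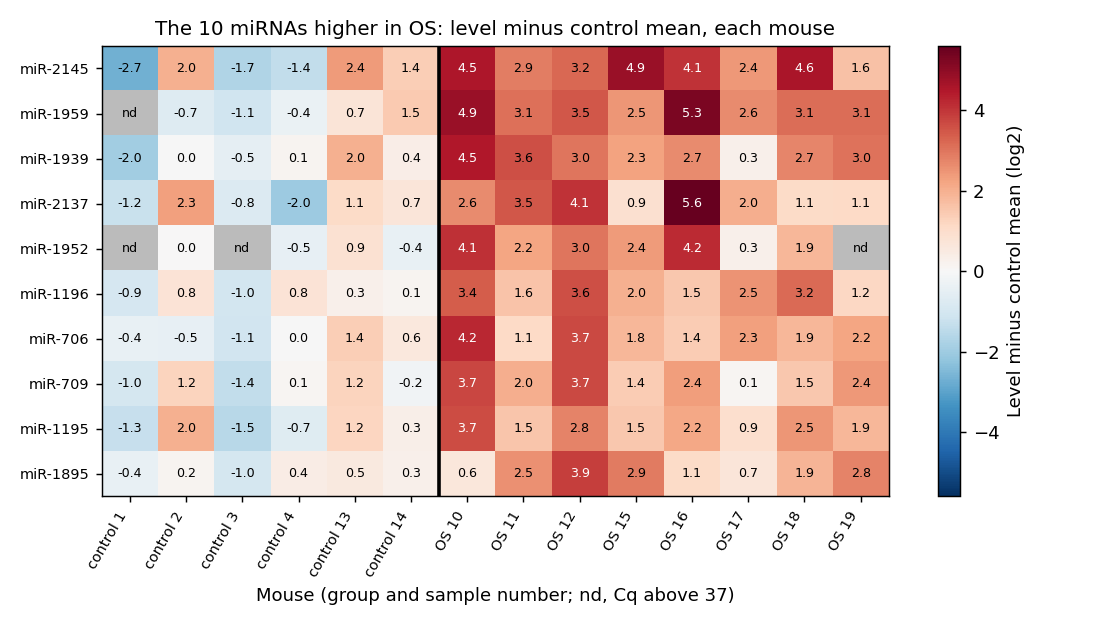
Level minus the control mean (colour and printed value, log2) of the 10 miRNAs higher in OS (rows) in each of the 6 control and 8 OS mice (columns), with nd where the Cq was above 37. Every measured OS value is above the control mean, and control replicate 13 is above it for all 10.

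The mice differed in how far the 10 rose. The median level of the 8 of these miRNAs measured in every mouse was −0.17, 1.32, 0.23, 0.25, 2.53 and 1.49 in control replicates 1, 2, 3, 4, 13 and 14. It was 4.73, 3.38, 4.37, 2.68, 3.06, 2.31, 2.76 and 2.96 in OS replicates 10, 11, 12, 15, 16, 17, 18 and 19. The highest control, replicate 13, lay above the lowest OS mouse, replicate 17, and OS replicates 10 and 12 were highest of all. OS replicate 10 also had the lowest haemolysis marker (1.05) and replicate 12 the next lowest (2.59). With this marker as a covariate miR-706, miR-1196, miR-1895, miR-1939, miR-1959 and miR-2145 passed the test, and miR-709, miR-1195, miR-1952 and miR-2137 did not (adjusted p from 0.0882 to 0.164 by limma).

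Of the 27 that did not pass, miR-1900, miR-1982* and miR-715 had the largest positive differences. miR-1900, which lies inside Icam5, a gene for an adhesion molecule of neurons, ran from 1.09 over 1.84 to 2.35 in controls and from 1.28 over 3.19 to 6.68 in OS. Only OS replicate 15 lay within the control range, and the difference of 1.98 (SE 0.65) had an adjusted p of 0.0504 by limma. It passed in 3 of the 14 fits that left out 1 mouse (OS replicates 15, 17 and 18, adjusted p of 0.0179, 0.0466 and 0.0394) and not in the other 11, with a lowest difference of 1.57. With the haemolysis marker as a covariate it was 1.13 (adjusted p = 0.314 by limma). miR-1982* differed by 1.77 (adjusted p = 0.0978 by limma) over 3 controls and 8 OS mice, and miR-715 by 1.73 (adjusted p = 0.22 by limma) over 4 and 8, or by 0.47 with the haemolysis marker as a covariate. With missing values set to Cq 38, miR-1982* passed at 2.74 (adjusted p = 0.00774 by limma).

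The lowest differences were those of miR-1949, miR-1961 and miR-872. miR-1949 ran from 3.11 over 3.44 to 4.25 in controls and from 1.11 over 2.60 to 3.65 in OS. All OS mice but replicate 17 lay below every control, and the difference of −1.09 (SE 0.38) had an adjusted p of 0.0649 by limma and an exact permutation p of 0.00966. Without OS replicate 17 it was −1.26 with an adjusted p of 0.0291 by limma, and it passed in none of the other 13 such fits. miR-872, inside Ift74, a gene of ciliary transport, differed by −0.38 (adjusted p = 0.569 by limma).

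miR-1961 is shown beside 2 let-7 miRNAs because it begins like them. let-7 is an ancient family that restrains growth-promoting messages and is abundant in adult tissue. The seed is again in capitals.
miR-1961: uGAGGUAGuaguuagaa
let-7i-5p: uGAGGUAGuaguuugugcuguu
let-7g-5p: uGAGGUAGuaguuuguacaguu
miR-1961 lies at chr5:92788465-92788481 on the minus strand, inside Shroom3, and shares its seed with 10 other mature mouse miRNAs of RefSeq, those of let-7 and miR-98. Its first 13 of 17 bases equal those of let-7i-5p (chr10:122985698-122985719, minus strand) and let-7g-5p (chr9:106178846-106178867, plus strand), against 11 or fewer for the other let-7 miRNAs. miR-1961 ran from −0.22 over 0.93 to 1.74 in controls and from −1.33 over 0.12 to 1.34 in OS, a difference of −0.70 (SE 0.43, adjusted p = 0.274 by limma). The groups overlap widely. Across the 14 mice, with each group centred on its mean, its level followed let-7i (r = 0.80) and let-7g (r = 0.72) more than the other 5 let-7 assays measured in every mouse, whose r ran from 0.33 for let-7e to 0.58 for let-7a, and the median r with all miRNAs was 0.07. let-7i differed by −1.17 and let-7g by −0.94 in OS, neither past the threshold (adjusted p = 0.0748 and 0.165 by limma). Other miRNAs came closer still, miR-26b at 0.94 and miR-107 at 0.86, and all these values share the RNA and the scaling of the mouse. Whether the miR-1961 assay also reads let-7 was not tested. The only other member with a shared seed was miR-708, whose seed is that of miR-28a-5p.

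Some members have a number shared with a human miRNA. A list of 23 such numbers, which is not complete, takes in 10 members. By limma at an adjusted p under 0.05, 0 of these were higher and 0 lower, with a median difference of 0.34. At an unadjusted p under 0.05, 3 were higher and 0 lower, where 30.7% of all miRNAs passed in either direction. With a background of 6.19% higher and 6.44% lower over all miRNAs, a count of 0 in 10 is near the background. Among them are miR-744, in Map2k4, a stress kinase gene, miR-708, in Tenm4, and miR-1306, in Dgcr8, the gene for a subunit of the complex that cuts miRNA hairpins. The difference was 1.24 for miR-877 (SE 0.54, adjusted p = 0.132 by limma) and 1.15 for miR-874 (SE 0.41, adjusted p = 0.0748 by limma). miR-874 ran from −2.40 over −1.71 to −0.46 in controls and from −1.30 over −0.56 to 1.10 in OS. The groups overlap, and it passed in 3 of the 14 fits that left out 1 mouse (OS replicates 15 and 17 and control replicate 2, adjusted p of 0.0405, 0.0466 and 0.0413) and not in the other 11. With the haemolysis marker as a covariate its difference was 0.64 (adjusted p = 0.366 by limma). miR-877 is a mirtron, a short intron, here of Abcf1, that folds into a hairpin once spliced. It was the only 1 of 4 listed mirtrons among the members, and it passed in 1 of the 14 fits, without OS replicate 15 (adjusted p = 0.0328 by limma), and not in the other 13. With the covariate its difference was 0.66 (adjusted p = 0.56 by limma). None of 10 miRNAs of the X-linked testis cluster was among the members.

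Counts by number are given as a description beside the background of 6.19% higher. In order, 2 of the 13 members from miR-700 to miR-877 were higher (median difference 0.28), as were 3 of the next 10, from miR-935 to miR-1898 (0.73), 3 of the 12 from miR-1900 to miR-1982* (0.69), and both of the highest number, miR-2137 and miR-2145. The members of lowest number were miR-700 with a difference of 0.80, miR-706 with 2.34 and miR-708 with −0.07. Just below the threshold lay miR-681 with −0.40, miR-676 with 0.05, miR-674 with 0.28 and miR-674* with 1.64. Of these miR-674* also passed the test (adjusted p = 0.0442 by limma).

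Both arms of a hairpin were among the members 3 times, each arm read by an assay of its own. For miR-744 and miR-708 the named arm lies on panel I and the star arm on panel II, where a difference between plates cannot be told apart from one between arms. Both arms of miR-872 lie on panel II. The named arm exceeded the star arm in all 14 mice for miR-744, by a median of 1.40 on the log2 scale (0.11 to 2.76). For miR-708 it did so by a median of 1.16 (−0.47 to 3.16) over the 11 mice with both. For miR-872 the star arm was the higher, by a median difference of −0.95 (−2.26 to 0.37, n = 14). No arm of the 3 hairpins passed the test between groups, and their differences ran from −0.38 for miR-872 to 0.28 for miR-744, with −0.07 for miR-708, 0.12 for miR-708*, 0.05 for miR-744* and 0.19 for miR-872*.

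Co-variation was described by Pearson's r between members over the mice of 1 group, for the members measured in every mouse. Over all 25 members the median r was 0.13 in controls and 0.11 in OS mice, against 0.02 and 0.01 over all 276 miRNAs. The 8 of the 10 higher miRNAs that were measured in every mouse moved together in controls, with a median r of 0.68 and all 28 pairs above 0. In OS mice their median r was 0.24 and 75% of pairs lay above 0. Over all 276 miRNAs 51.3% of pairs lay above 0 in controls and 50.8% in OS mice. The remaining 17 members had median r of 0.03 and −0.06. These values rest on 6 and 8 mice, all wells of a mouse share RNA and scaling, and the difference between the groups was not tested. Against the haemolysis marker the 8 had a median r of 0.26 in controls and −0.45 in OS mice. In the same order it was 0.05 and −0.18 over the other 17 members and 0.16 and −0.40 over all 25. Over all 276 miRNAs it was 0.08 in both groups.

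**Figure D5:**
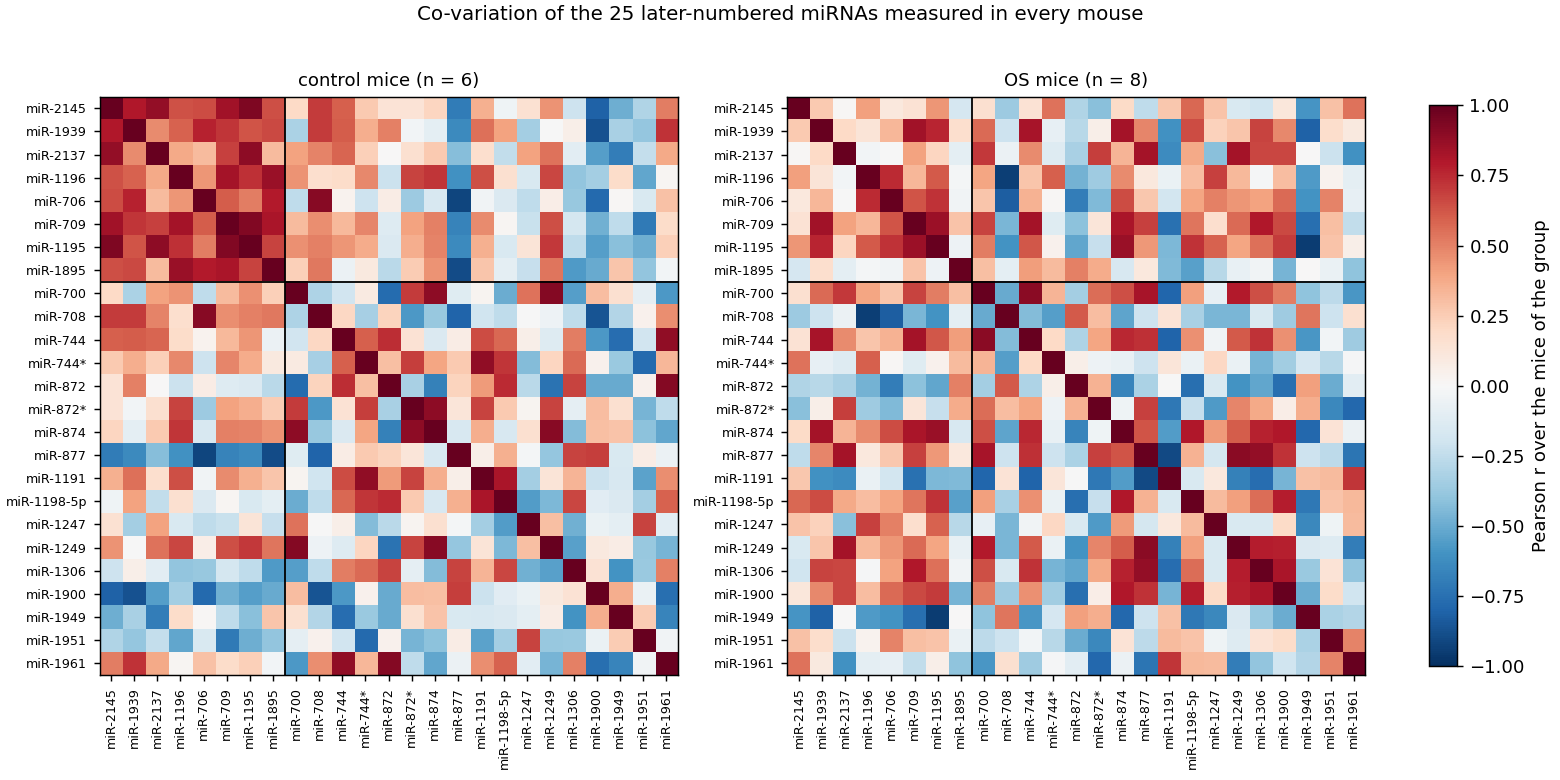
Pearson's r (colour) between the 25 later-numbered miRNAs measured in every mouse, over the 6 control mice (left) and the 8 OS mice (right), with the 8 higher in OS above and left of the black lines. In controls that block is red throughout (median 0.68), and in OS mice it is paler (median 0.24).

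The closest miRNAs to these 8 over the 14 mice, after each group was centred on its mean, were looked up as a description. Of the 24 places (3 for each of 8), 6 were held by members and 6 by names of 700 and above that the rule left out. miR-1195 and miR-709 were close to each other (r = 0.85), and miR-1195 also to miR-2145 (r = 0.78). miR-1939 followed miR-339-5p (r = 0.89), miR-191 (0.87) and miR-720 (0.85), miR-706 followed miR-106b* (0.84), and miR-2145 and miR-2137 each followed miR-345-5p (0.79 and 0.77). miR-1196 was closest to miR-1937c (0.65) and miR-1895 to miR-30e* (0.65). No test was made of these values.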

How the data were processed

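RNA from plasma of 6 control and 8 OS mice had been measured on Exiqon mouse panels I and II. The authors deposited Cq values, on a log2 scale, for 768 wells per mouse, 13.9% to 24.7% of them blank, from before normalization. Whether plates had been calibrated by then is not given. The authors' deposited table of fold changes and p-values was used for well names only. No molecules were counted, so precision came from the spread between mice. The methods give 14 OS mice, of which 8 were analysed here.

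A Cq above 37 was set to missing, and miRNAs missing in 75% or more of mice were left out, which kept 388. Each mouse was centred on its mean Cq over these, with missing values replaced, for that mean only, by the group mean or by Cq 38. Groups were compared by limma 3.58.1 in R 4.3.3 (lmFit and eBayes, two-sided, Benjamini-Hochberg over 388, threshold 0.05). For each member the difference between group means was also tested by an exact two-sided permutation over up to 3003 splits of the mice. Tables and plots were made in Python 3.11.15 with pandas 2.3.3, numpy 2.4.6 and matplotlib 3.10.9. Simulated tables in which known miRNAs were changed served to check the fit.

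The miRNAs named are the members past the threshold, the 10 most abundant, the 3 largest differences in each direction that did not pass, those with both arms, the 5 largest differences in detection, up to 2 per list, those beside 700, the names left out, and the 3 closest miRNAs to each member past the threshold. miR-1961 was set beside let-7 after its sequence was seen. Alternatives were other scalings, Cq limits, filters, a t-test, the haemolysis marker as covariate and leaving out each mouse. Members and lists were chosen with earlier results of these data known. Sequences of 12 members are not shown.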

Additional observations from a re-analysis of the deposited data

Results flagged for a closer look

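In 72 groups of 4 to 8 mice, Dixon's test found 2 single values far from the rest, where chance gives about 1 in 20. The 2 are a smaller share than that, and they are given as a description. miR-708* was at −2.98 in control replicate 1, against −4.47 to −4.42 in the other 3 controls with a value. miR-872 was at −4.00 in OS replicate 10, against −2.40 to −1.02 in the other 7 OS mice. That mouse also had the lowest haemolysis marker, 1.05, and with that marker as a covariate the difference of miR-872 was 0.15, against −0.38 without it. Neither miRNA passed the test between groups.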

How the results depend on the processing

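The count of 10 higher members stayed between 8 and 11 under scaling to the 3 reference miRNAs of the study (miR-103, miR-191, miR-423-3p), to the median or by panel, under Cq limits of 35 and 39, with missing values at Cq 38 and under both filters. It was 2 unscaled, 6 by the t-test of the methods, 6 with the haemolysis marker as a covariate and 0 in the mice numbered 10 to 19, and the cause was not tested. Over all miRNAs the count higher was 24 in the main fit, 4 unscaled, 10 by the t-test and 11 with the covariate. It was 22 under scaling to the 3 reference miRNAs, 28 under scaling to the median and 24 by panel. For the other settings, and on leaving out 1 mouse, the count over all miRNAs is not given. miR-709, miR-1195, miR-1952 and miR-2137 were lost by both the t-test and the covariate, and unscaled only miR-1959 and miR-2145 passed. By limma, miR-1900 passed under scaling to the median (adjusted p = 0.0402) and among miRNAs measured in every mouse (adjusted p = 0.0484). Leaving out 1 mouse gave 7 to 13 higher and 0 to 1 lower, with 7 without control replicate 3 and without control replicate 14, and miR-706, miR-1196, miR-1895, miR-1939, miR-1959 and miR-2145 passed each time. The median difference of 0.72 was 0.27 unscaled, 0.36 by panel and 1.10 at Cq 35, where fewer members are tested, and 0.63 to 0.94 on leaving out 1 mouse. At Cq 35, 24.5 members were detected in a control and 26.6 in an OS mouse.

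Signs turned only for members that never passed. Unscaled, by panel and where given with another setting, differences were −0.44 and −0.32 for miR-708* (−0.11 by the 3 miRNAs), −0.38 and −0.39 for miR-744* (−0.0025 by the 3 miRNAs), −0.34 and −0.29 for rno-miR-764 (−0.13 at Cq 39, −0.20 at Cq 38 for missing values), −0.24 and −0.25 for miR-872*, −0.0467 and −0.0528 for miR-1198-5p, and −0.04 and −0.0461 for miR-1306 (−0.39 at Cq 35). Unscaled, miR-744 was at −0.15 and miR-1957 at −0.0352. By panel miR-708 was at 0.18, scaled to the median at 0.0723 and with the covariate at 0.29. rno-miR-935 was at −0.46 at Cq 35, −0.11 at Cq 39, −0.52 with missing values at Cq 38 and −0.59 in the mice numbered 10 to 19. miR-1944 was at 0.67 at Cq 35, 0.0552 at Cq 39 and 0.10 with the covariate, miR-1934 at −0.15 with missing values at Cq 38, and miR-872 at 0.15 with the covariate. Leaving out 1 mouse gave −0.13 to 0.28 for miR-744*, −0.24 to 0.25 for miR-708, −0.61 to 0.46 for miR-1944, −0.0125 to 0.48 for miR-708*, −0.19 to 0.40 for rno-miR-764, −0.00831 to 0.39 for miR-872* and −0.56 to 0.0286 for miR-1930. No paired analysis was possible because the groups share no sample number. With 6 and 8 mice and some members near the detection limit, small differences were not detectable.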
